A study of Homo sapiens with 32 samples.

Results

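Zinc enters and leaves the cytosol through 2 families of membrane proteins. The SLC30A genes encode ZnT proteins, which export zinc from the cytosol to the outside or into organelles, and the SLC39A genes encode ZIP proteins, which import it. The table of the series lists 22610 gene entries, 23 of them SLC30A or SLC39A genes. The 10 genes described here were taken by their symbols: the exporters SLC30A1, SLC30A5, SLC30A6, SLC30A7 and SLC30A9, and the importers SLC39A1, SLC39A6, SLC39A7, SLC39A10 and SLC39A14. The list was chosen with earlier results of these data known. All 10 were found and all 10 passed the filter of a mean of at least 1 FPKM, which 12621 entries passed.

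Transcripts were measured by RNA-Seq in SK-N-BE(2) cells, an established human neuroblastoma line. Cultures received 20 μM cannabidiol (CBD) in ethanol or the vehicle alone (0.1% ethanol) for 3, 6, 12 or 24 h, with 4 samples in each of the 8 groups and 32 in all. The values are FPKM, which scale the reads of a transcript to its length and to the library, so levels of different genes can be compared. A difference is given as a log2 fold change of FPKM with 1 added, CBD minus vehicle of the same time, and was called at a Benjamini-Hochberg adjusted p under 0.01 from limma, a linear model fitted to all genes at once. A single cell line was used, grown and treated in wells.

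Depth relative to the median sample, estimated from values that behave as single reads, ranged from 0.794 to 1.20. Its median was lower with CBD at every time, 0.925 against 1.05 at 3 h and 0.954 against 1.05 at 6 h, and 24 h had the smallest gap (1.00 against 1.02). All 11 adrenergic neuroblastoma markers looked for were detected, with a summed level of 3378 to 4175 FPKM per sample. The immune markers summed to at most 0.0305 FPKM. Of the mesenchymal markers, VIM and TWIST1 reached 330.3 and 234 FPKM while PRRX1 was at 0 in 25 of 32 samples. The keratinocyte markers summed to 5.78 to 9.01 FPKM, nearly all of it KRT10, with TP63 at 0 in 20 samples and KRT5 in 31.

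SLC30A1 encodes ZnT1, the exporter of the plasma membrane that lowers cytosolic zinc. Its transcription is a classical target of MTF1, a zinc-sensing transcription factor that binds metal response elements in the promoters of SLC30A1 and of the metallothionein genes. SLC39A10 encodes ZIP10, an importer of the plasma membrane, and is known in several systems to be repressed when zinc is high. ZnT5 and ZnT6 pair to load zinc into the early secretory pathway, and ZIP7 releases zinc from the endoplasmic reticulum.

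The promoter windows of the 2 genes with the largest differences are shown because metal response elements are known from such promoters. They run from 250 bases before to 50 bases after the RefSeq transcription start, 5′ to 3′ on the strand of the gene, and capitals mark matches to the core letters TGCACNC or TGCGCNC on either strand. The sequences are from RefSeq (GRCh38.p14) and each was found unchanged in GRCh37, whose positions are given: chr1:211752454-211752753 on the minus strand for SLC30A1 and chr2:196521700-196521999 on the plus strand for SLC39A10.
SLC30A1: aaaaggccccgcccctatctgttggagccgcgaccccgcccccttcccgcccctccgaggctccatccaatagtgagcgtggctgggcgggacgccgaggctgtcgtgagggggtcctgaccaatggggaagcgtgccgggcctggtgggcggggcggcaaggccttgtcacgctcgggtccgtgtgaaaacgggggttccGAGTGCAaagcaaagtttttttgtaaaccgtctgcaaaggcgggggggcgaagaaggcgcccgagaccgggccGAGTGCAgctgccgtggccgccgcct
SLC39A10: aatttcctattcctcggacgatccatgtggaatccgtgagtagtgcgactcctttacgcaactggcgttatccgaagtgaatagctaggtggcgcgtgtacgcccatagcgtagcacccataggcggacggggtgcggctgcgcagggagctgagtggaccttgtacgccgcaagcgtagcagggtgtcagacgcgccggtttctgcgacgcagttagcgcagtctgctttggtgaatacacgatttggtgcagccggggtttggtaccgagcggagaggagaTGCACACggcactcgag
The SLC30A1 window holds 2 matches, both TGCACTC read on the minus strand of the gene, at -49 to -43 and at 25 to 31 counted from the start. The SLC39A10 window holds 1, TGCACAC at 34 to 40, and a second RefSeq window of this gene, chr2:196521432-196521731, holds none. Over all 35116 windows of this length in the RefSeq table, 29.6% hold at least 1 match and 8.60% at least 2. Among the other members, SLC30A6, SLC39A1 and SLC39A6 had 1 match each, and a second window of SLC39A1 held none. SLC30A5, SLC30A7, SLC30A9 and SLC39A7 had no match, and 9 members had a window. The shares over all windows count windows and not genes. These letters are short and a match is not a bound site.

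CBD raised the transcript of the exporter SLC30A1 at all 4 times and lowered that of the importer SLC39A10 at 3, 6 and 12 h. SLC30A1 stood at 4.00 times its vehicle level at 3 h and at 1.25 times at 24 h. SLC39A10 was lowest at 6 h, at 0.243 times vehicle, and at 24 h it was at 1.02 times. The other 8 transporters differed from vehicle by at most 11.2% of the mean at any time. Because whole cultures were measured, fewer cells with a transcript and less of it per cell cannot be told apart.

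**Figure D1:**
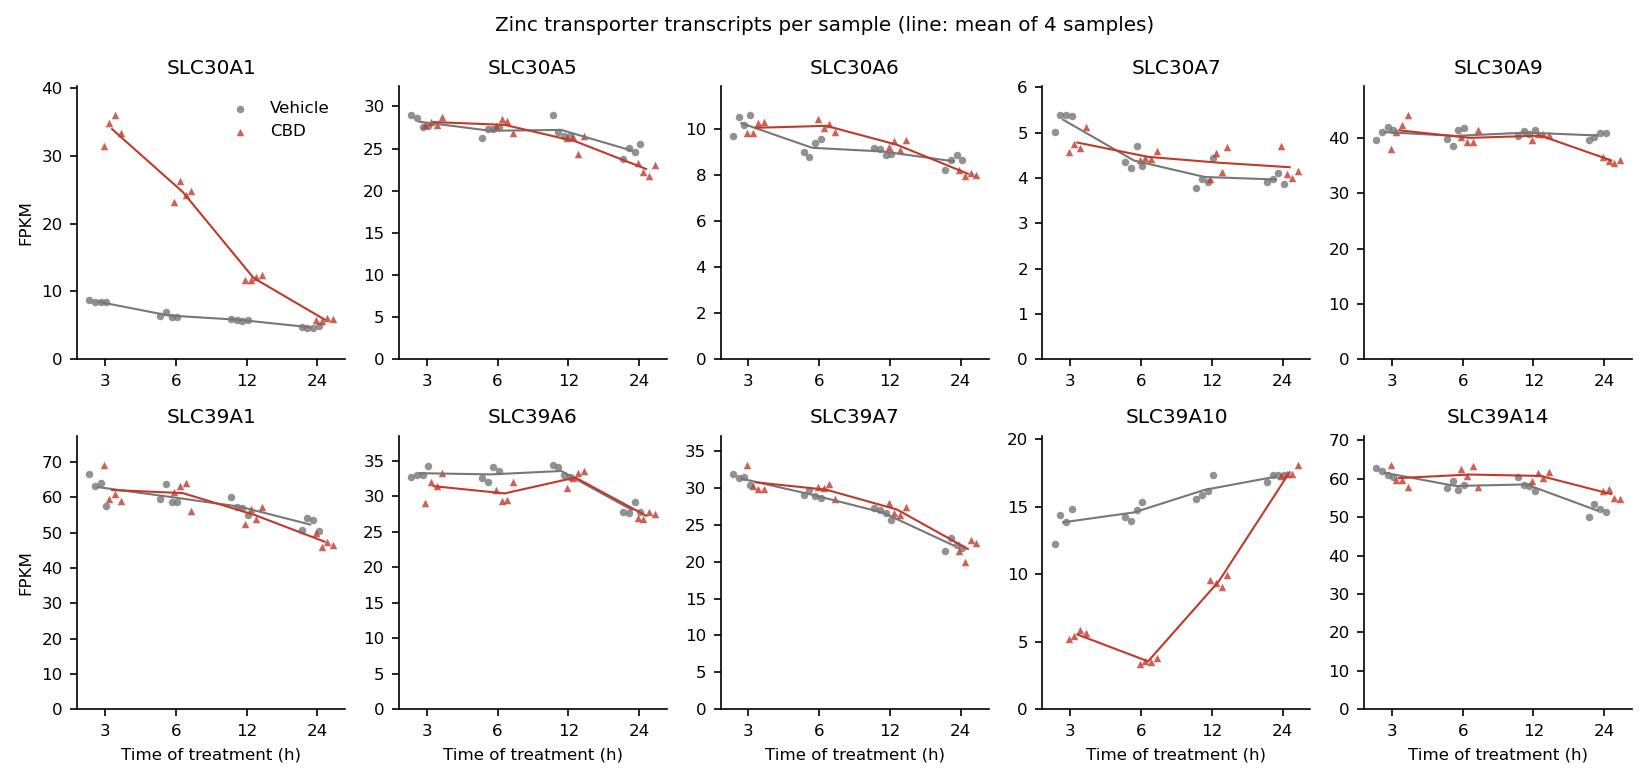
FPKM (y axis, linear and starting at 0, with a scale of its own in each panel) of the 10 zinc transporter genes against time of treatment (h). Each symbol is a sample, grey circles vehicle and red triangles CBD, and lines join the means of 4 samples. SLC30A1 with CBD falls from 33.9 to 5.87 FPKM toward the vehicle line, SLC39A10 with CBD dips to 3.54 FPKM at 6 h and meets vehicle at 24 h, and in the other panels the symbols lie close together.

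SLC30A1 lies on chromosome 1 at chr1:211744910-211752503 (GRCh37, GENCODE 44) on the minus strand, and its exons overlap no other annotated gene. At 3 h the 4 vehicle samples were at 8.78, 8.37, 8.41 and 8.42 FPKM and the 4 CBD samples at 31.5, 34.9, 36.0 and 33.4 FPKM. The groups were far apart, with every CBD sample more than 20 FPKM above the highest vehicle sample. The log2 fold change was 1.88 ± 0.037 (standard error, n = 4 per group, limma adjusted p = 2.19e-23), which ranked 28 from the top among the 12621 genes tested. At 6 h vehicle was at 6.33, 6.99, 6.25 and 6.25 FPKM and CBD at 23.2, 26.3, 24.3 and 24.9 FPKM, a log2 fold change of 1.78 (limma adjusted p = 8.28e-23).

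At 12 h the difference of SLC30A1 was smaller and the groups stayed apart. Vehicle was at 6.01, 5.74, 5.69 and 5.81 FPKM and CBD at 11.8, 11.7, 12.1 and 12.4 FPKM, a ratio of means of 2.06 (log2 fold change 0.93, limma adjusted p = 1.39e-16). At 24 h vehicle was at 4.73, 4.66, 4.57 and 4.90 FPKM and CBD at 5.75, 5.70, 6.05 and 5.99 FPKM. The lowest CBD sample was still above the highest vehicle sample, and the log2 fold change was 0.27 (limma adjusted p = 8.82e-07). With a value of 5 in place of 1 added before the logarithm, the difference at 24 h was 0.16 and still called.

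SLC39A10 lies at chr2:196440701-196602426 (GRCh37, GENCODE 44) on the plus strand, with no other gene over its exons. At 3 h its vehicle samples were at 12.3, 14.4, 13.8 and 14.9 FPKM and its CBD samples at 5.16, 5.43, 5.88 and 5.67 FPKM. Each CBD sample was below 6 FPKM and each vehicle sample above 12, a 2.50-fold lower mean with CBD (log2 fold change -1.18 ± 0.044, limma adjusted p = 1.45e-16). At 6 h vehicle was at 14.3, 14.0, 14.8 and 15.4 FPKM and CBD at 3.31, 3.60, 3.49 and 3.77 FPKM. The mean was 4.12-fold lower (log2 fold change -1.78, limma adjusted p = 4.94e-21), at rank 37 from the bottom among all genes tested.

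By 12 h SLC39A10 with CBD had come partway back. Vehicle was at 15.6, 15.9, 16.2 and 17.4 FPKM and CBD at 9.54, 9.37, 9.08 and 9.93 FPKM, 1.72-fold lower (log2 fold change -0.72, limma adjusted p = 1.13e-12). At 24 h vehicle was at 16.8, 17.4, 17.4 and 17.4 FPKM and CBD at 17.3, 17.5, 17.4 and 18.1 FPKM. The groups overlapped and the log2 fold change was 0.026 ± 0.044 (limma adjusted p = 0.654).

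At 3 h SLC30A1 and SLC39A10 were the members called, 2 of 10, where 2.46% of all genes were called. The members were chosen with earlier results of these data known, so no excess over all genes can be read from these counts. At 6 h 3 of 10 were called against 10.2% of all genes, at 12 h 2 of 10 against 20.1%, and at 24 h 5 of 10 (SLC30A1, SLC30A5, SLC30A6, SLC30A9 and SLC39A14) against 42.1%. The groups of 4 did not overlap for 2, 3, 2 and 6 members in order of time, where 9.88%, 19.6%, 30.3% and 51% of all genes did not overlap. The median log2 fold change of the 10 members was -0.025, 0.028, 0.0012 and -0.036 at 3, 6, 12 and 24 h, and that of all genes lay between -0.0048 and 0.0066. The calls of SLC30A1 at 4 times and of SLC39A10 at 3 times held under each of 44 alternatives, among them a relative depth term. The alternatives include a looser threshold, which cannot lose a call, and 32 fits with a sample left out. Leaving out a sample of another time leaves the difference itself unchanged.

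**Figure D2:**
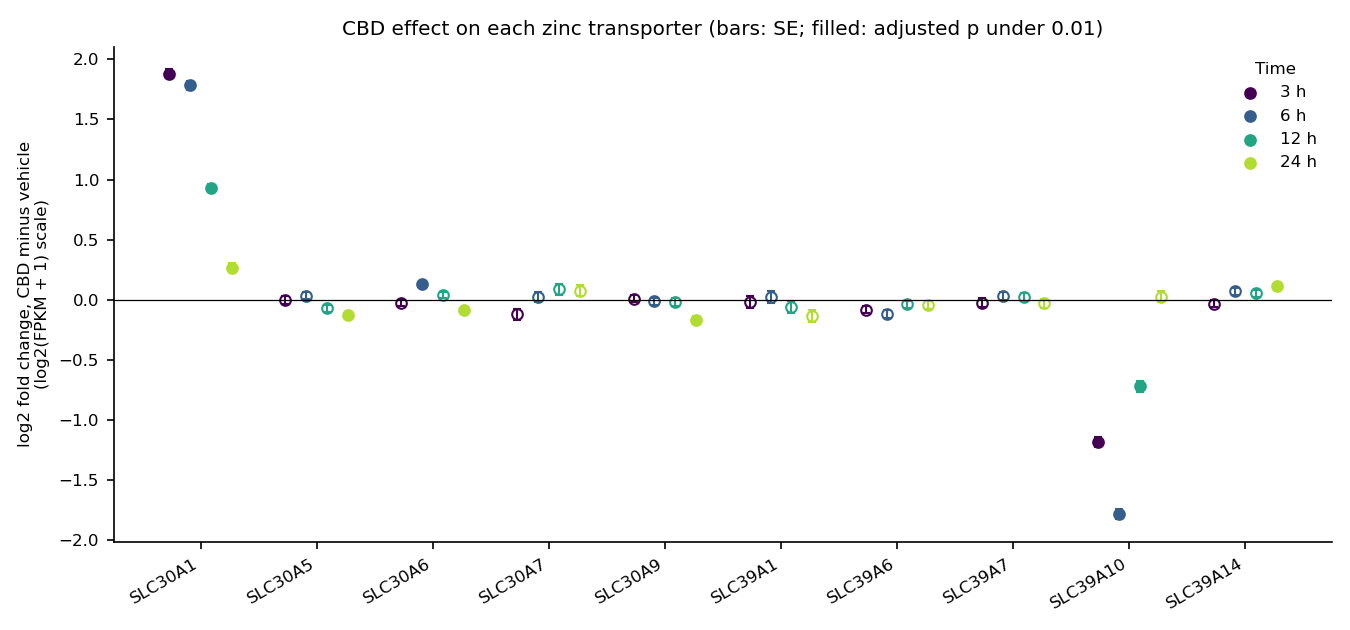
Log2 fold change, CBD minus vehicle, on the log2(FPKM + 1) scale (y axis) for each of the 10 zinc transporters (x axis), with a point for each time of treatment and bars of 1 standard error. Filled points passed an adjusted p of 0.01: SLC30A1 is high at 3 and 6 h (1.88 and 1.78), SLC39A10 is low at 3, 6 and 12 h (-1.18, -1.78 and -0.72), and the points of the other 8 genes lie between -0.17 and 0.13.

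The remaining 4 exporters moved little. SLC30A6, the ZnT6 subunit, lies at chr2:32390910-32449448. At 6 h its vehicle samples were at 8.997, 8.79, 9.38 and 9.58 FPKM and its CBD samples at 10.4, 10.03, 10.2 and 9.88 FPKM. CBD was higher in all 4 samples, by 0.13 ± 0.026 on the log2 scale (limma adjusted p = 0.000837), a call lost when the 6 h samples were fitted alone (adjusted p = 0.0348). At 24 h the order was turned around: vehicle was at 8.23, 8.65, 8.86 and 8.66 FPKM and CBD at 8.22, 7.95, 8.08 and 7.98 FPKM. The lowest vehicle sample was only just above the highest CBD sample, and the difference of -0.083 (limma adjusted p = 0.00954) was lost under 26 of 44 alternatives, with adjusted p values up to 0.0418.

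SLC30A5 encodes ZnT5, the partner of ZnT6, at chr5:68389818-68426896. It fell with CBD at 24 h by 0.13 on the log2 scale (limma adjusted p = 0.000754). Vehicle was at 23.8, 25.0, 24.6 and 25.5 FPKM and CBD at 23.3, 22.2, 21.8 and 23.1 FPKM, so that the groups were apart by less than 1 FPKM. At the earlier times its groups overlapped, with means of 28.1 against 28.2 FPKM at 3 h and 25.9 against 27.2 FPKM at 12 h. In the annotation 9.78% of its exonic bases lie opposite another gene.

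SLC30A9 lies at chr4:41992519-42092478 and encodes ZnT9, a member that has been linked to zinc export from mitochondria. Its level stayed near 40 FPKM in vehicle at all times, from 40.4 to 41.0 FPKM in the mean. At 24 h vehicle was at 39.6, 40.2, 41.0 and 41.0 FPKM and CBD at 36.5, 35.8, 35.5 and 36.0 FPKM. All 4 CBD samples lay more than 3 FPKM below vehicle, a fall of 0.17 on the log2 scale (limma adjusted p = 4.00e-05), with no call at 3, 6 or 12 h.

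SLC30A7, at chr1:101361632-101447313, encodes ZnT7 of the Golgi and had the lowest FPKM of the members in vehicle. It was called at no time. Its vehicle samples at 3 h were at 5.01, 5.38, 5.39 and 5.38 FPKM and its CBD samples at 4.58, 4.75, 4.67 and 5.14 FPKM, groups that overlap through 1 sample of each (log2 fold change -0.12, limma adjusted p = 0.0935). At 12 and 24 h its CBD means were the higher ones, 4.34 against 4.02 and 4.24 against 3.97 FPKM, and the groups overlapped.

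Of the 4 importers besides SLC39A10, only SLC39A14 was called against vehicle at a single time, 24 h. SLC39A14, at chr8:22224791-22291642, encodes ZIP14, which carries iron and manganese as well as zinc. Vehicle was at 50.0, 53.4, 52.1 and 51.4 FPKM and CBD at 56.8, 57.3, 55.0 and 54.8 FPKM. Every CBD sample was above every vehicle sample, by 0.11 ± 0.028 in the mean on the log2 scale (limma adjusted p = 0.00126), and the call was lost under median-ratio scaling (adjusted p = 0.0147).

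SLC39A6, at chr18:33688494-33709348, encodes ZIP6, the closest relative of ZIP10 and its partner in a heteromer. At 6 h, where SLC39A10 was lowest, the SLC39A6 vehicle samples were at 32.6, 32.0, 34.2 and 33.5 FPKM and the CBD samples at 30.9, 29.3, 29.5 and 32.0 FPKM. The 2 groups touched at 32.0 FPKM, and the log2 fold change of -0.12 ± 0.033 did not pass (limma adjusted p = 0.0117; it passed under 7 alternatives). At 3, 12 and 24 h the log2 fold change was -0.081, -0.039 and -0.040.

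SLC39A1, at chr1:153931575-153940660, encodes ZIP1, an importer found in most tissues. At 24 h vehicle was at 50.9, 54.2, 53.7 and 50.5 FPKM and CBD at 49.9, 46.1, 47.4 and 46.6 FPKM, with no overlap. The log2 fold change of -0.14 ± 0.049 missed the threshold (limma adjusted p = 0.0213), and its standard error was the largest among the members; it passed under 3 alternatives. Of its exonic bases 60.8% are shared with another annotated gene on the same strand, so part of its FPKM may belong to that gene. SLC39A7, at chr6:33168082-33172216, encodes ZIP7. Its log2 fold changes lay between -0.031 and 0.032 and none was called.

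The difference between CBD and vehicle was also compared between times, within the same fit. For SLC30A1 the difference of the effect between 3 and 6 h was not called (-0.095 ± 0.052, limma adjusted p = 0.314) and the effect then shrank by 0.85 from 6 to 12 h and by 0.66 from 12 to 24 h. For SLC39A10 the effect grew by a further -0.60 ± 0.062 from 3 to 6 h, then moved back by 1.06 from 6 to 12 h and by 0.75 from 12 to 24 h, all called. So the SLC30A1 difference was large already at 3 h, with no called change to 6 h, and that of SLC39A10 was largest at 6 h.

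Members called for a change of effect numbered 1 of 10 from 3 to 6 h (2.1% of all genes called), 2 from 6 to 12 h (2.33%), 2 from 12 to 24 h (8.15%) and 4 from 3 to 24 h (27.2%). Here too the choice of members with earlier results known means that no excess can be read from the counts. The 4 from 3 to 24 h were SLC30A1 (-1.61), SLC39A10 (1.21), SLC30A9 (-0.18, limma adjusted p = 0.00166) and SLC39A14 (0.14, limma adjusted p = 0.00449). Under 2 of 44 alternatives the SLC30A9 call was lost, with quantile normalization and with the 3 and 24 h samples fitted alone. The SLC39A14 call was lost under 7 of 44, among them the fit of those times alone, median-ratio scaling and single samples left out. Over the alternatives the limma adjusted p reached 0.0554 for SLC30A9 and 0.0231 for SLC39A14. An F-test over the 4 differences called 7 of 10 members, all but SLC30A7, SLC39A1 and SLC39A7, where it called 47.2% of all genes. SLC39A6 was among the 7 (limma adjusted p = 0.00546). Its call was lost under 5 of 43 alternatives, the model with relative depth added and single 6 h samples left out. The F-test call of SLC30A5 was lost under 3 alternatives and that of SLC30A9 under 1.

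Within a sample, the FPKM of SLC30A1 was divided by that of SLC39A10, the exporter and the importer that differed most from vehicle. The ratio therefore repeats their differences and is not a balance of all exporters and importers. In vehicle this ratio was 0.617 ± 0.068 (SD, n = 4) at 3 h and 0.274 ± 0.0094 at 24 h. With CBD it was 6.14 ± 0.23 and 6.97 ± 0.29 at 3 and 6 h, and had come down to 1.27 ± 0.048 and 0.334 ± 0.0089 at 12 and 24 h. The 4 CBD samples lay above the 4 vehicle samples at each time, at 24 h by a lowest value of 0.326 against a highest of 0.282. The ratio of SLC39A10 to its relative SLC39A6 was 0.441 ± 0.011 in vehicle and 0.117 ± 0.0065 with CBD at 6 h, and at 24 h it was 0.614 ± 0.016 and 0.644 ± 0.013 with the samples overlapping.

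**Figure D3:**
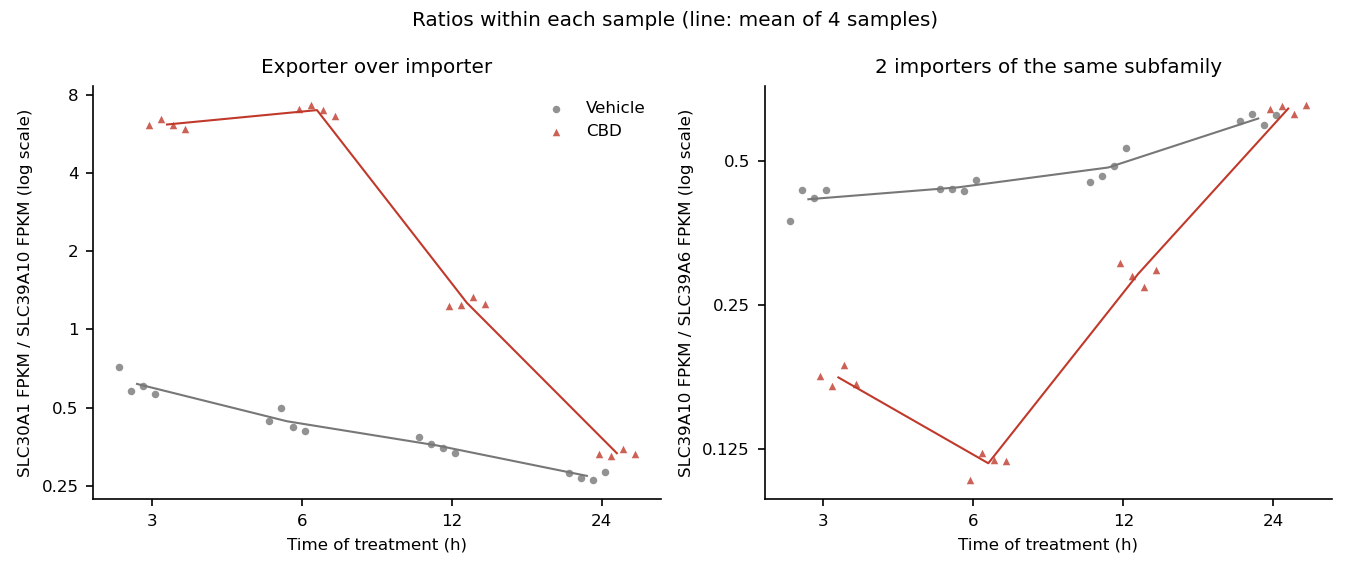
Ratio of SLC30A1 to SLC39A10 FPKM (left) and of SLC39A10 to SLC39A6 FPKM (right) within each sample (y axes, log scale) against time of treatment (h). Symbols are samples, grey circles vehicle and red triangles CBD, and lines join the means of 4; the left ratio with CBD is near 6 to 7 at 3 and 6 h and at 0.334 by 24 h, while vehicle goes from 0.617 to 0.274.

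Summed over the 5 exporters, CBD samples held 112 to 122 FPKM at 3 h and vehicle samples 92.1 to 94.1 FPKM. SLC30A1 made up 28.7% ± 1.1 (SD, n = 4) of that sum with CBD and 9.11% ± 0.29 in vehicle. At 24 h the order of the sums was the other way, 75.4 to 78.5 FPKM with CBD and 80.3 to 83.9 FPKM in vehicle. The 5 importers summed to a mean of 190 FPKM with CBD and 203 FPKM in vehicle at 3 h. The samples overlapped, at 186 to 200 FPKM with CBD and 198 to 206 FPKM in vehicle. This sum includes SLC39A1, most of whose exonic bases are shared with another annotated gene. At 6 h SLC39A10 made up 1.91% ± 0.16 of the importer sum with CBD and 7.48% ± 0.37 in vehicle.

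The transporters also differed between the vehicle groups, which differ in hours of culture, of exposure to ethanol and in harvest; these cannot be told apart. In vehicle at 24 h against 3 h, 8 of 10 members were lower and 1 was higher, where 57.8% of all genes were called, 31.1% lower and 26.6% higher. SLC30A1 fell most, by 0.73 on the log2 scale or from 8.50 to 4.71 FPKM in the mean (limma adjusted p = 3.53e-15), and SLC39A7 fell by 0.48. SLC39A10 was the member that rose, from 13.9 to 17.2 FPKM (0.30, limma adjusted p = 1.32e-06), and SLC30A9 was not called (-0.020). The median change of the members was -0.24, and that of all genes -0.013.

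The order of FPKM levels among the members was nearly the same at every time in vehicle. SLC39A1 and SLC39A14 were highest, at 51.7 to 62.9 FPKM in the mean, with overlapping samples, followed by SLC30A9 and SLC39A6. The place of SLC39A1 is uncertain, because most of its exonic bases are shared with another annotated gene. SLC39A7 and SLC30A5 held places 5 and 6 and overlapped at 12 h. Below them came SLC39A10, SLC30A6, SLC30A1 and SLC30A7, in this order at all 4 times and with no overlap between neighbours.

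With CBD, SLC30A1 and SLC39A10 changed places in this order. At 3 h SLC30A1 stood in place 4, its samples overlapping those of SLC39A6, and SLC39A10 in place 9. At 6 h SLC39A10 was the lowest of all 10, below SLC30A7 with no overlap. By 24 h both were back in places 9 and 7. Within groups of 4, the coefficient of variation of a member was between 1.21% and 8.21%, with a median of 3.00%.

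The other genes of zinc handling were looked at in the same fit. Metallothioneins are small proteins that bind zinc and copper, made from similar genes whose reads can be shared. Of the 10 in the table, MT1A, MT1B and MT3 did not pass the filter, and MT1E, MT1F, MT1G, MT1H and MT1M, with vehicle means from 0 to 0.383 FPKM, passed it only through the CBD samples, so that only MT1X and MT2A are described. The log2 fold changes of MT2A at 3, 6, 12 and 24 h were 2.99, 4.67, 4.08 and 1.69, and those of MT1X were 2.79, 4.57, 3.28 and 0.62, all called. MT2A in vehicle was at 11.2, 12.2, 13.3 and 10.5 FPKM at 3 h and at 11.8, 10.4, 12.0 and 11.5 FPKM at 6 h. With CBD it was at 96.7, 132, 99.9 and 79.5 FPKM at 3 h and at 245, 524, 310.1 and 251 FPKM at 6 h. Every CBD sample was above every vehicle sample. From 3 to 6 h the effect of MT2A rose by a further 1.68 ± 0.25 (limma adjusted p = 0.000111) and that of MT1X by 1.78 ± 0.26 (limma adjusted p = 6.80e-05), while the change of SLC30A1 was not called.

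Their regulator MTF1 had log2 fold changes of -0.082, -0.057, -0.072 and -0.081, none of them called. The F-test over the 4 differences called MTF1 (limma adjusted p = 0.00183), where it called 47.2% of all genes. MTF1 stood at 2.63 FPKM with CBD and 2.85 FPKM in vehicle at 3 h. Of the other SLC39A genes 6 were tested, of which 0 were called at 3, 6 and 12 h and 1 at 24 h, where 42.1% of all genes were called. SLC39A11, which encodes ZIP11, rose at 24 h, with vehicle at 4.94, 5.24, 5.14 and 5.38 FPKM and CBD at 7.06, 6.96, 6.71 and 7.12 FPKM (log2 fold change 0.37, limma adjusted p = 5.76e-10). SLC39A4, the intestinal importer ZIP4, had log2 fold changes of 0.23 at 6 h (limma adjusted p = 0.0153) and 0.18 at 24 h (0.0251), neither called, and passed the F-test (limma adjusted p = 0.00983). None of the 5 other SLC30A genes in the table passed the filter, the highest sample being 1.53 FPKM for SLC30A3.

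**Figure D4:**
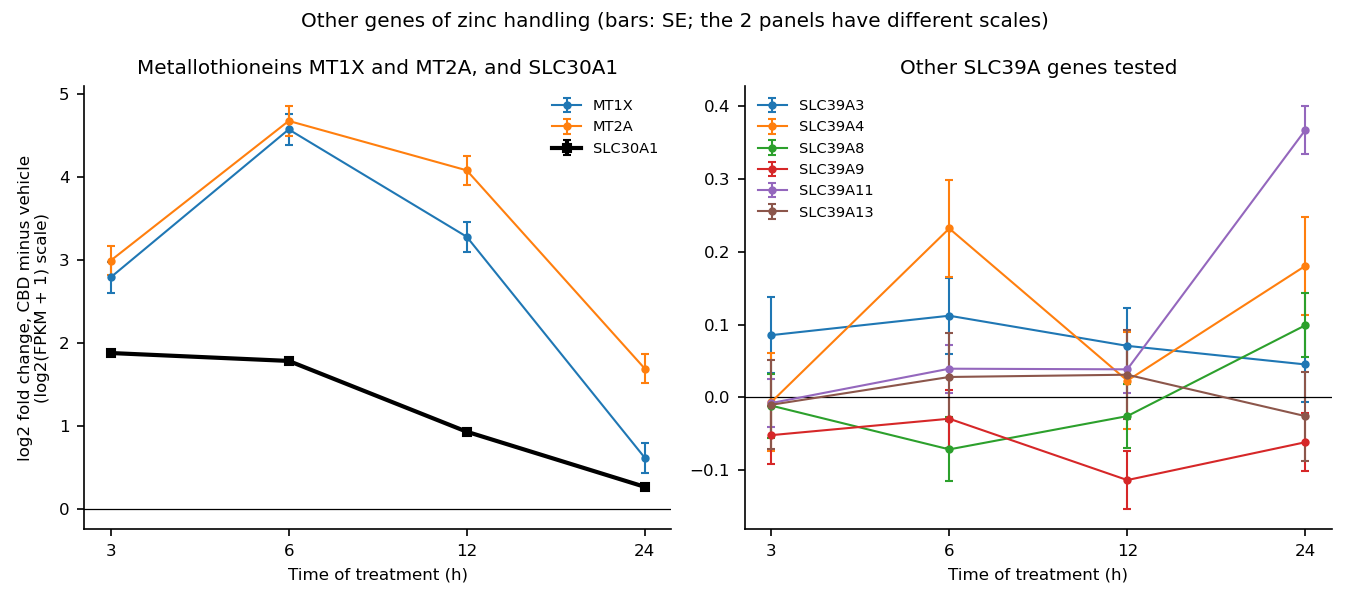
Log2 fold change, CBD minus vehicle, on the log2(FPKM + 1) scale (y axes, different in the 2 panels) against time of treatment (h), with bars of 1 standard error. Left, the metallothioneins MT1X and MT2A are highest at 6 h (4.57 and 4.67) while SLC30A1, in black, is at 1.88 and 1.78 at 3 and 6 h and declines; right, of the other 6 SLC39A genes SLC39A11 stands apart at 24 h (0.37).

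Of 5 copper transport genes tested, ATP7A, the copper pump, was the one called against vehicle, at 12 h (0.20, limma adjusted p = 0.00172). That was 1 of 5, where 20.1% of all genes were called at 12 h. At 24 h 0 of 5 were called, where 42.1% of all genes were. Of 5 iron transport genes, the number called at 3, 6, 12 and 24 h was 0, 1, 2 and 3, where 2.46%, 10.2%, 20.1% and 42.1% of all genes were called. TFRC, the transferrin receptor, fell by 0.47, 0.65 and 0.31 on the log2 scale at 6, 12 and 24 h, and SLC25A37, the mitochondrial iron importer, rose by 0.20 at 12 h and 0.30 at 24 h. SLC11A2, the divalent metal transporter that also takes up iron, rose by 0.12 at 24 h (limma adjusted p = 0.00453) with its groups overlapping.

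Genes with the most similar course were found as the smallest root mean square distance of log2(FPKM + 1) after removal of each gene's mean, over the 32 samples. For SLC39A10, whose own root mean square about its mean was 0.71, they were JUN (0.42), GEM (0.44), SH2D3C (0.44), STMN4 (0.46) and SESN3 (0.47). The JUN differences were -0.16, -0.81, -0.66 and -0.085 at 3, 6, 12 and 24 h. Those of GEM, SH2D3C, STMN4 and SESN3 were -0.22, 0.021, 0.040 and -0.24 at 3 h. At 6 h they were -0.63, -0.70, -0.64 and -0.39. SLC39A10 itself was at -1.18 and -1.78 at 3 and 6 h, so none of the 5 was a close match to its CBD course. For SLC30A1, with 0.90 about its own mean, the nearest were ISLR2 (0.60), CHAC1 (0.63), ID3 (0.64), ID1 (0.64) and SGK1 (0.65). CHAC1 had log2 fold changes of 1.08, 1.16, 0.94 and 0.78 with CBD, a course that did not decline as that of SLC30A1 did. The log2 fold changes of ISLR2, ID3, ID1 and SGK1 were 0.22, 0.12, 0.23 and 0.29 at 3 h. At 24 h they were larger, 0.43, 0.69, 0.74 and 0.81, where that of SLC30A1 had shrunk. None of these genes was therefore a close match to the CBD course of SLC30A1.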

How the data were processed

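SK-N-BE(2) cultures (32 samples, 8 groups of 4 from the labels) were sequenced as single reads of 50 bases. The deposited FPKM were made by the authors with Cufflinks after trimming (Trimmomatic 0.36) and TopHat alignment to hg19. The labels name TopHat2 2.2.1 and a Nugen kit, the methods a TruSEQ kit. A table of the authors' Cuffdiff fold changes and q-values was not used. Nothing in the labels ties replicates to separate experiments, so p-values measure the spread between these samples, which may be technical.

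log2(FPKM + 1) was fitted with limma 3.58.1 (R 4.3.3) as 8 group means for entries averaging at least 1 FPKM, using eBayes with an intensity trend, two-sided tests and Benjamini-Hochberg adjustment over all genes within each comparison, and the fit was tested on simulated data. Adding 1 understates fold changes of low genes. FPKM hold no read totals, so relative depth came from 1414 genes above 0 in a few samples (94.4% of values within 10% of a whole number of reads). Named genes are the 10 members, other zinc, metallothionein, copper and iron genes, and the 5 nearest to SLC30A1 and to SLC39A10. Members and lists were chosen with earlier results of these data known. Alternatives changed the added value (0.1, 5), the filter (none, 5 FPKM), the scaling (median-ratio, quantile), the samples (only the times compared, each sample left out), the model (replicate block, relative depth, eBayes without trend or robust) and the threshold (0.05).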

Additional observations from a re-analysis of the deposited data

Results flagged for a closer look

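A sample far from the other 3 of its group was looked for in 80 groups (10 members in 8 groups of 4), as a gap to the nearest sample that passed Dixon's critical value as a share of the group's range. Chance gives about 1 in 20, that is 4, and 10 were found. For SLC30A1 they were vehicle replicate 1 at 3 h (gap 0.896 of the range, 8.78 against 8.42 FPKM for the nearest) and vehicle replicate 2 at 6 h (0.896, 6.99 against 6.33 FPKM), both high. For SLC39A10 it was vehicle replicate 1 at 24 h, the lowest (0.954, 16.8 against 17.4 FPKM). The SLC30A5 samples were low, CBD replicate 3 at 12 h (0.854) and vehicle replicate 1 at 6 h (0.869), as were SLC30A7 vehicle replicate 1 at 3 h (0.973) and SLC30A9 CBD replicate 1 at 12 h (0.883). High ones were SLC39A1 vehicle replicate 2 at 6 h (0.838), SLC39A6 vehicle replicate 3 at 24 h (0.873) and SLC39A7 CBD replicate 1 at 3 h (0.849).

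The effect of CBD differed between times in 9 tests of the difference itself. That of SLC30A1 changed by -0.85 from 6 to 12 h, by -0.66 from 12 to 24 h and by -1.61 from 3 to 24 h. That of SLC39A10 changed by -0.60 from 3 to 6 h, 1.06 from 6 to 12 h, 0.75 from 12 to 24 h and 1.21 from 3 to 24 h. From 3 to 24 h SLC30A9 changed by -0.18 and SLC39A14 by 0.14.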

How the results depend on the processing

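Of 37 calls of a member in a comparison, 29 held under every alternative run, 12 of them settings and 32 a sample left out in turn, and of 63 values not called 55 were never called; none was reversed, and 13 of the uncalled values changed sign in some alternative. The count for the change of effect from 3 to 6 h (1) became 2 under median-ratio scaling and with a threshold of 0.05, by SLC30A6, and ranged from 1 to 2 with a sample left out, the 2 arising without vehicle replicate 1 at 3 h, vehicle replicate 4 at 6 h, CBD replicate 4 at 6 h or vehicle replicate 1 at 24 h. That from 12 to 24 h (2) became 4 under the same 2 settings, by SLC30A6 and SLC30A9. That from 3 to 24 h (4) became 2 with only the time points compared, where fewer samples set the spread, and 6 with a threshold of 0.05 (SLC30A5 and SLC30A7 added), with a range of 3 to 5 when a sample was left out. The F-test uses all time points and was not run on a part of them. Without any 1 sample the counts at 3, 6, 12 and 24 h were 2, 3 to 4, 2 and 4 to 6, and over all alternatives the F-test called 5 to 8. A mean of at least 5 FPKM leaves out SLC30A7. With 5 added before the logarithm the SLC39A10 effect at 6 h was -1.20 and its change from 3 to 6 h -0.36, both still called.

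Same-numbered CBD and vehicle samples did not deviate together: correlations over 16 pairs lay between -0.076 and 0.094, and 5 of 16 CBD samples correlated best with their own number. With a replicate block the counts of members called were 2, 4, 2 and 4 at 3, 6, 12 and 24 h, 1, 2, 3 and 4 for the changes of effect (3 to 6, 6 to 12, 12 to 24 and 3 to 24 h), 9 in vehicle and 7 by the F-test. Depth is known only as a ratio between samples, which limits what can be said of low genes such as SLC30A7.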

Other observations

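Among CBD samples at 6 h, replicate 2 had the highest MT2A (524 FPKM against 245 to 310.1) and MT1X (350.1 FPKM against 149 to 198), and also the highest SLC30A1 (26.3 FPKM against 23.2 to 24.9). Its SLC39A10 level, 3.60 FPKM, lay within those of the other samples (3.31 to 3.77 FPKM). At 3 h replicate 2 also had the highest MT2A of the CBD samples (132 FPKM), but the highest SLC30A1 was in replicate 3 (36.0 against 34.9 FPKM).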
